A study of Homo sapiens
Mus musculus and Mus musculus and Homo sapiens with 16 samples.

Results

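The genes described here are the D-type cyclins and their G1 partners, namely *CCND1*, *CCND2*, *CCND3*, *CDK4*, *CDK6*, *CDKN1A*, *CDKN1B*, *CDKN2C*, *RB1*, and *RBL2*. They were chosen by symbol as the cyclin D1 axis of mantle cell lymphoma (MCL), and they make up 10 of the 58051 human genes in the deposited count table. All 10 symbols were found, and 9 passed the filter on low counts. The exception was *CCND2*, which was close to absent.

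D-type cyclins bind the kinases CDK4 and CDK6 and carry the cell from G1 towards S phase by phosphorylating the pocket proteins, which include RB1 and p130 (encoded by *RBL2*). Hypophosphorylated RB1 holds E2F transcription factors inactive, and p130 represses cell cycle genes in resting cells as a core of the DREAM complex. The inhibitor p18 (*CDKN2C*) acts on CDK4 and CDK6, whereas p21 (*CDKN1A*) and p27 (*CDKN1B*) mainly restrain cyclin E and cyclin A complexes of CDK2. MCL is defined by the t(11;14) translocation, which places *CCND1* under an immunoglobulin heavy chain enhancer, in a B-cell lineage that normally uses cyclins D2 and D3.

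REC-1, an established human MCL cell line, was grown for 24 h either alone (Sep) or with MS-5, a stromal cell line derived from mouse bone marrow. From the coculture, the lymphoma cells that stayed in suspension (Susp) and those that adhered to the stroma (Adh) were taken as separate fractions. Each group held 4 libraries, and 4 libraries of MS-5 cells grown alone served as the mouse control. No gene was altered and no drug was given in these groups, all were kept in the same αMEM-based medium with serum, and each cell type is represented by a single line. The Adh libraries contain RNA of both species, which the authors separated by sequence. Human counts per library ranged from 9325412 to 12597891 in Sep, from 15000927 to 21467832 in Susp, and from 7758979 to 13241751 in Adh, and the Adh libraries held a further 29495404 to 34615602 mouse counts each. The study describes its replicates as independent experiments. Sample titles share a replicate number across the groups, but the labels do not say whether it marks a shared culture or experiment. The main model took the libraries as unpaired, and its p-values measure the spread between these libraries. Fits with a replicate block are given at the end. Pooled poly(A) RNA of all cells in a fraction was sequenced, so that fewer cells of a kind and less RNA per cell cannot be told apart.

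The labelled cell type was checked against B-cell genes (*MS4A1*, *CD79A*, *CD79B*, *CD22*, *PAX5*, *CD5*, and *SOX11* are given here) and a stromal list of 12 genes. Levels are given in CPM, counts per 1000000 human counts of the library, with the library total scaled by its TMM factor from edgeR. Over the 12 libraries *MS4A1* was at 989.6 to 1371 CPM, *CD79A* at 909 to 1479 CPM, and *PAX5* at 549 to 968 CPM. *CD5*, which MCL cells usually carry, was low with 0 to 22 counts. Human stromal genes summed to between 2.36 and 5.22 CPM. Of these, *THY1*, *CXCL12*, *VCAM1*, and *LUM* were at 0 in all 12 libraries.

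One library stood apart. In Susp replicate 2 the 25% of tested genes with the longest transcripts had a median log2 deviation of -0.29 from the group mean, whereas the 25% with the shortest were at 0.25. In the other 11 libraries the longest 25% stayed between -0.054 and 0.12. Member differences and list counts that this library moves most are given with and without it.

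Since the Adh libraries are mixtures, the members can only be read where human and mouse transcripts differ in sequence. Coding sequences of the 10 members were compared with those of the mouse counterparts in the GENCODE transcripts of GRCh38 and GRCm38. The pair *CDKN2C* and *Cdkn2c* was most alike, with 91.7% of aligned bases identical, and *CDKN1A* and *Cdkn1a* least, with 75.15%. The longest run of identical bases was 110 in *CDK6*, 95 in *CDKN2C*, and 56 or fewer in the others. The first 90 coding bases are shown for *CCND1*, the most abundant member, and for *CCND2* and *CDKN1A*, whose mouse transcripts far outnumbered the human ones. They lie within the first coding exon, with no UTR, at chr11:69641314-69641403 (plus strand), chr12:4274041-4274130 (plus), and chr6:36684102-36684191 (plus) in GRCh38, and at chr7:144939604-144939693 (minus), chr6:127150684-127150773 (minus), and chr17:29098408-29098497 (plus) in GRCm38. Each is written 5′ to 3′ on the coding strand, and capitals mark bases that differ between the species at the same distance from the start codon.
Human CCND1: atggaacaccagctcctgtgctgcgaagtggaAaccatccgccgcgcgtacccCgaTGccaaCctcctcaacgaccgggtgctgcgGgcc
Mouse Ccnd1: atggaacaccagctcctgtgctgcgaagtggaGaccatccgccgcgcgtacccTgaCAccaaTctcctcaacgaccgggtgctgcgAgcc
Human CCND2: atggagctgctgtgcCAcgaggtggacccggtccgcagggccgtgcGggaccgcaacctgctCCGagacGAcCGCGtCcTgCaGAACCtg
Mouse Ccnd2: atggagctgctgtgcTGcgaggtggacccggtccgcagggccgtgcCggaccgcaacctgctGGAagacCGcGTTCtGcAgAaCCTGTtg
Human CDKN1A: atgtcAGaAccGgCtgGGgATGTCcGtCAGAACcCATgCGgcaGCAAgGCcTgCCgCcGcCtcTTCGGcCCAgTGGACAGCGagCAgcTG
Mouse Cdkn1a: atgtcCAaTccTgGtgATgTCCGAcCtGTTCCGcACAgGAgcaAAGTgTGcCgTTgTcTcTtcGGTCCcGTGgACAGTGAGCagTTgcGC
The *CCND1* stretches differ at 6 of 90 bases, those of *CCND2* at 20, and those of *CDKN1A* at 57. In *CCND2* and *CDKN1A* the reading is without gaps, so an insertion or deletion turns the bases after it into capitals.

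Little mouse signal appeared under the human gene where the comparison could be made. In the 4 Adh libraries, mouse *Ccnd2* had 12772 to 16156 counts, while human *CCND2* had 2 counts in replicate 1 and 0 in the other three. The human counts of *CCND2* thus came to 0.00352% of the mouse counts. Human *CDKN1A* had 4 to 14 counts beside 3741 to 5191 for mouse *Cdkn1a*, which is 0.107% to 0.301% per library, and its mean level in Adh (0.962 CPM) was not above that in Sep (1.05 CPM), where no mouse cells were present. For *CDK6*, the human counts of 14 to 50 stood beside 1565 to 2103 mouse counts (0.895% to 2.72%). Here the Adh and Sep levels overlapped as well. For *CCND1* and *CDKN2C* the human counts exceeded the mouse counts in all 4 libraries.

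**Figure D1:**
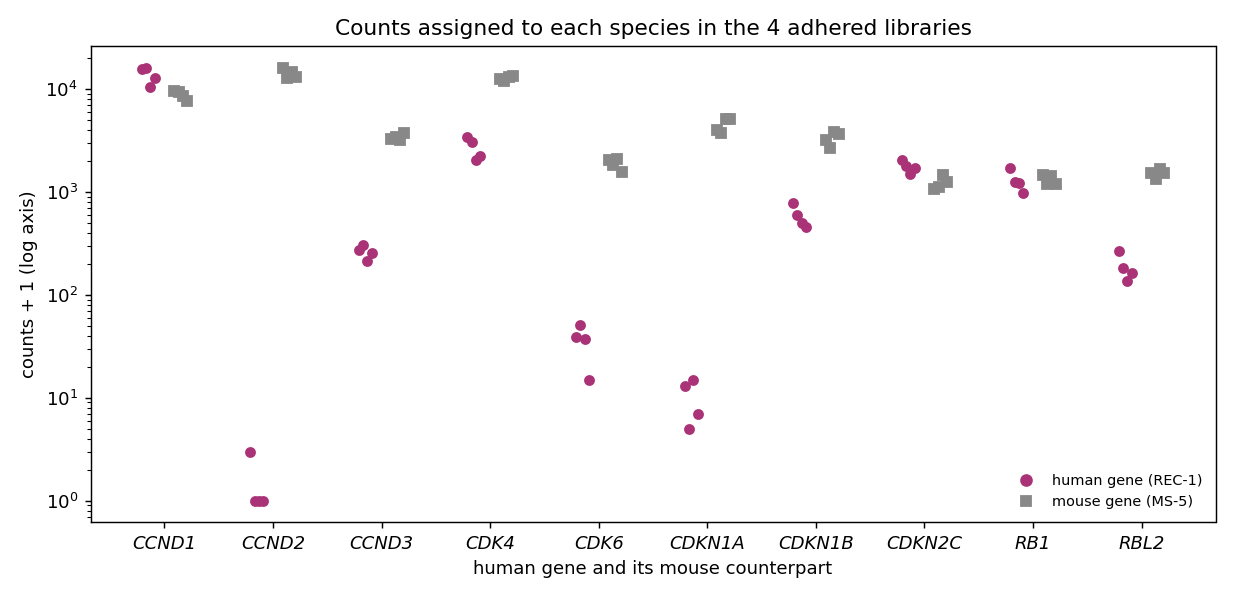
Counts plus 1 (log axis) of each human member (circles) and its mouse counterpart (squares) in the 4 adhered libraries, 1 point per library. Human CCND2 lies at 0 to 2 counts under 12772 to 16156 mouse counts, while human CCND1, at 10618 to 16234 counts, lies above mouse Ccnd1, at 7750 to 9714.

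To rank the members, counts were scaled to library size and to the length of all exons of a gene joined (RPKM). *CCND1* came first in all 12 libraries, with a mean of 318.5 ± 57.2 RPKM (SD, n = 12). It was 3.65 times the next member, *CDK4* (87.3 ± 7.71 RPKM), and the ranges of the 2 genes did not overlap. *CDKN2C* followed at 59.4 ± 9.15 RPKM, *RB1* at 18.7 ± 2.93, *CDKN1B* at 6.41 ± 0.521, *CCND3* at 4.61 ± 0.861, and *RBL2* at 2.65 ± 0.473. Between *CDKN1B*, *CCND3*, and *RBL2* the ranges of neighbours overlapped, although each was above the next in all 12 libraries. *CDKN1A* (0.315 ± 0.182 RPKM) and *CDK6* (0.244 ± 0.105 RPKM) could not be ordered, since *CDKN1A* was the higher in 8 of 12 libraries. *CCND2* was last in every library. The order depends on the length assigned to a gene. With the length of the canonical transcript alone, *CDKN2C* (180 ± 27.7 RPKM) came before *CDK4* (145 ± 12.8 RPKM), and *RB1* and *CDKN1B* drew level at 25.2 ± 3.95 and 24.6 ± 2.00 RPKM.

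**Figure D2:**
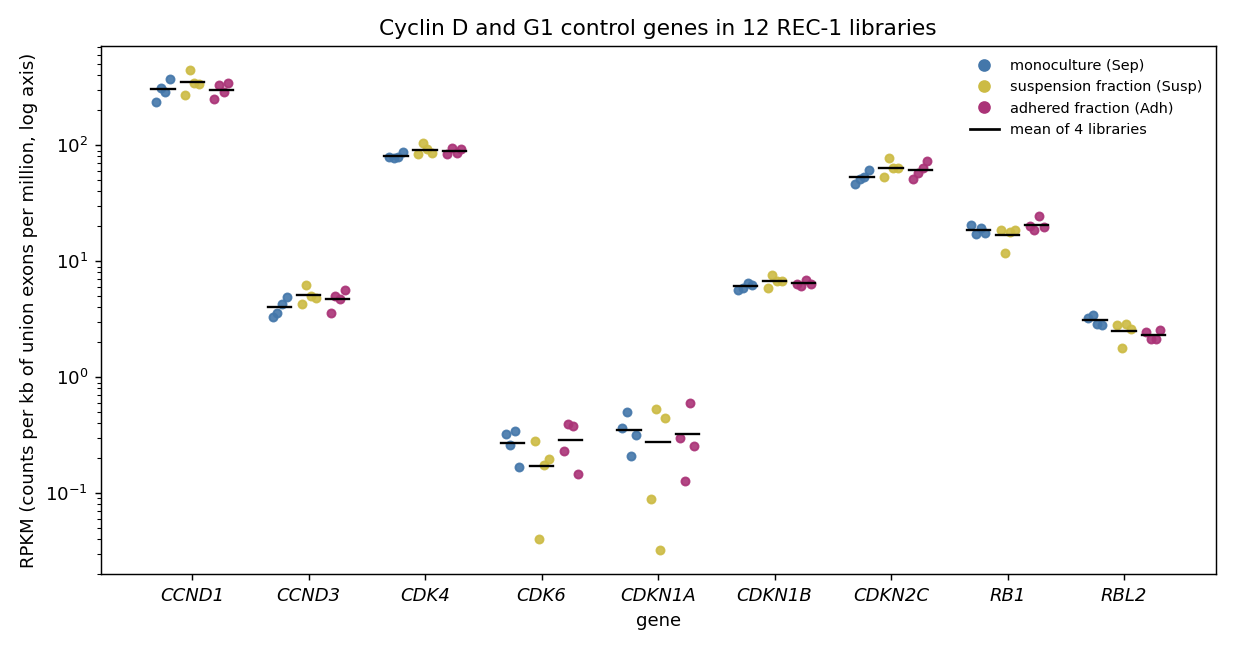
RPKM (log axis) of 9 members in the 12 REC-1 libraries, 1 point per library, with bars for the mean of 4 libraries. CCND1 lies highest, between 238 and 446 RPKM, while CDK6 and CDKN1A lie below 1, and CCND2, at 0 in 11 libraries, is not drawn.

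*CCND1*, at chr11:69641156-69654474 in GRCh38 on the plus strand, encodes cyclin D1. It ranked between 32nd and 73rd by CPM among the 58051 human genes. Its level was 1133, 1496, 1379, and 1758 CPM in Sep replicates 1 to 4, 1301, 2124, 1643, and 1609 CPM in Susp, and 1185, 1561, 1362, and 1647 CPM in Adh. The groups overlapped, replicate 1 was lowest in each of them, and Susp replicate 2 was the highest library of all. Means were 1441 ± 260, 1669 ± 340, and 1439 ± 207 CPM (SD, n = 4). Adhered and monocultured cells differed by a log2 fold change of -0.0028 (SE 0.15, 95% interval -0.31 to 0.31, edgeR adjusted p = 0.994), which leaves room for a change from 0.805-fold to 1.24-fold. Adh vs Susp gave -0.21 (SE 0.15, adjusted p = 0.444) and Susp vs Sep 0.21 (SE 0.15, adjusted p = 0.454). Without Susp replicate 2 these became -0.062 and 0.065.

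*CCND2* (chr12:4269771-4305353, plus strand) encodes cyclin D2. It had 0 counts in 11 of 12 libraries, and the only signal was the 2 counts in Adh replicate 1. A library with 0 counts allows up to 3 counts, or between 0.14 and 0.387 CPM at these depths (without the TMM factor), for counting error only. Against that floor of 3 counts per library, and per length, *CCND1* was at least 7192-fold higher in Sep and at least 10918-fold higher in Susp. Both values take counts as independent. If a read pair added 2 counts, the floor would be higher and both folds lower.

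*CCND3* (chr6:41934934-42050357, minus strand) encodes cyclin D3 and was the only other D-type cyclin measured well. It was at 19.2, 20.5, 24.6, and 28.3 CPM in Sep, at 24.5, 35.7, 29.0, and 28.0 CPM in Susp, and at 20.4, 29.0, 27.4, and 32.3 CPM in Adh. Sep libraries were mostly lower, but the groups overlapped. The log2 difference of Susp vs Sep was 0.34 (SE 0.16, adjusted p = 0.299) and that of Adh vs Sep 0.23 (SE 0.16, adjusted p = 0.462). Leaving out Susp replicate 2 brought the first to 0.22.

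Cyclin D1 made up 98.4% to 98.9% of the summed RPKM of the D-type cyclins in every library. The *CCND1* to *CCND3* ratio was 67.7 to 88.5 in Sep, 64.4 to 72.1 in Susp, and 60.0 to 70.2 in Adh, so that the 3 ranges overlapped. By canonical transcript length the same ratio was 23.7 to 34.9 over the 12 libraries. The preponderance of *CCND1* thus held by either length, whereas its size did not.

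Of the kinase partners, *CDK4* was abundant and *CDK6* nearly silent. *CDK4* (chr12:57747727-57756013, minus strand) was at 241 to 271 CPM in Sep, 262 to 321 in Susp, and 258 to 293 in Adh, the narrowest spread of any member in Sep. The Susp vs Sep difference was 0.18 on the log2 scale (SE 0.085, adjusted p = 0.294), and 0.11 without Susp replicate 2. Its exons share 1369 bases, 44.2% of their length, with *TSPAN31* on the opposite strand, and the libraries did not mark strand, so that reads there cannot be told apart. *TSPAN31* held 4699 counts over the 12 libraries, next to 41668 for *CDK4*.

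*CDK6* (chr7:92604921-92836573, minus strand) had 8 to 52 counts per library. Its level was 3.93, 3.17, 4.18, and 2.07 CPM in Sep, 3.45, 0.491, 2.12, and 2.41 CPM in Susp, and 2.85, 4.81, 4.62, and 1.79 CPM in Adh. The lowest library was again Susp replicate 2, and *CDK6* has the longest transcript of the members. Adh vs Susp gave the largest fitted difference of any member, 0.74 (SE 0.43, 95% interval -0.17 to 1.64, adjusted p = 0.372), which was within the spread, and 0.42 without that library. By RPKM *CDK4* exceeded *CDK6* by 226 to 634 times in 11 libraries and by 2591 times in Susp replicate 2.

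Among the inhibitors, *CDKN2C* (chr1:50960745-50974634, plus strand) was by far the most abundant and p21 the least. *CDKN2C* was at 140, 153, 162, and 186 CPM in Sep, at 159, 232, 191, and 191 CPM in Susp, and at 155, 173, 190, and 219 CPM in Adh. The fractions of the coculture were the higher on average but overlapped with Sep. Taken by replicate number, *CDKN2C* was higher than in Sep in 4 of 4 Adh and 4 of 4 Susp libraries. It was not called with a replicate block. In the unpaired main fit, differences from Sep were 0.27 in Susp (SE 0.13, adjusted p = 0.297) and 0.20 in Adh (SE 0.13, adjusted p = 0.407). Without Susp replicate 2, the Susp difference was 0.16.

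*CDKN1B* (chr12:12685498-12722369, plus strand), whose p27 product is controlled largely by protein turnover, differed little between groups. It ranged from 52.6 to 60.3 CPM in Sep, from 54.7 to 69.8 in Susp, and from 56.8 to 64.4 in Adh. Its log2 differences were 0.15 in Susp vs Sep (SE 0.093), 0.087 in Adh vs Sep (SE 0.094), and -0.062 in Adh vs Susp (SE 0.094). None passed the test (adjusted p = 0.404, 0.648, and 0.744), and without Susp replicate 2 the first was 0.081.

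*CDKN1A* (chr6:36676460-36687337, plus strand) had 2 to 26 counts per library and was at 1.10, 1.5, 0.627, and 0.955 CPM in Sep, 0.265, 1.60, 0.0965, and 1.34 CPM in Susp, and 0.900, 0.385, 1.80, and 0.769 CPM in Adh. Susp held both its lowest and its second-highest library after Adh replicate 3. With SEs of 0.63 to 0.66 on the log2 scale, even a change of 0.336-fold or 2.34-fold in Adh vs Sep is inside the 95% interval, so no difference was detectable at this depth. All 24 counts of *CDK6* and *CDKN1A* were even numbers, as were 65.0% to 79.2% of counts from 1 to 20 in each library, which bears on their precision because a read pair may then have added 2 counts.

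The pocket proteins came closest to a difference. *RBL2* (chr16:53433977-53491648, plus strand), which encodes p130, was at 26.3, 27.8, 23.3, and 22.9 CPM in Sep, at 22.7, 14.4, 23.4, and 21.3 CPM in Susp, and at 19.8, 17.3, 17.3, and 20.9 CPM in Adh. All 4 Adh libraries lay below all 4 Sep libraries, while Susp overlapped both. Means were 25.1 ± 2.37 CPM in Sep and 18.8 ± 1.81 CPM in Adh (SD, n = 4). The log2 difference was -0.41 (SE 0.15, 95% interval -0.73 to -0.10), equal to 0.75-fold, with an edgeR adjusted p of 0.125, and so it was not called. The groups did not overlap in 15.7% of all tested genes in this comparison. The spread is estimated over all 12 libraries, and without Susp replicate 2 the same difference had an adjusted p of 0.0245, at a fold still below 1.5. A correction for transcript length and GC content gave -0.37 (adjusted p = 0.0427), whereas DESeq2 gave -0.41 (adjusted p = 0.0874). The exons of *RBL2* share 609 bases, 7.51% of their length, with *AKTIP* on the opposite strand, where reads cannot be told apart. *AKTIP* held 1206 counts over the 12 libraries, next to 3300 for *RBL2*. Another gene on the opposite strand shares 721 bases (8.89%) and held 9 counts.

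*RB1* (chr13:48303744-48599436, plus strand) was at 133, 111, 125, and 114 CPM in Sep, at 119, 75.5, 115, and 120.0 CPM in Susp, and at 129, 119, 158, and 126 CPM in Adh. Susp replicate 2 was far below every other library, and Adh replicate 3 was the highest. Adh vs Susp differed by 0.31 (SE 0.13, 95% interval 0.025 to 0.59, edgeR unadjusted p = 0.0349, adjusted p = 0.244). Without Susp replicate 2 the difference was 0.19 (adjusted p = 0.313).

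No member was called in any comparison by edgeR at an adjusted p of 0.05 and a 1.5-fold change, nor by DESeq2 at the same thresholds. For Adh vs Susp, edgeR called 0.778% of the 12861 genes tested and 0 of 9 members, of which 1 (*RB1*) had an unadjusted p under 0.05, beside 18% of all genes. For Susp vs Sep it called 0.731% of genes and 0 of 9 members, of which 3 (*CCND3*, *CDK4*, and *CDKN2C*, all higher in Susp) had an unadjusted p under 0.05, beside 16.7% of all genes. Without Susp replicate 2 none of these 3 did. For Adh vs Sep it called 2.4% of genes and 0 of 9 members, of which 1 (*RBL2*) had an unadjusted p under 0.05, beside 20.2% of all genes. At any fold, an adjusted p of at most 0.05 was reached by 0.941% of genes in Adh vs Susp, 1.02% in Susp vs Sep, and 3.41% in Adh vs Sep, and by 0 members. Groups without overlap made up 11.4%, 11.4%, and 15.7% of the tested genes, and the only member among them was *RBL2* in Adh vs Sep. The shares called by DESeq2 were 2.19%, 1.35%, and 4.1% in the same order. With so few calls among all genes, 0 of 9 members is near what the whole table shows. The Sep, Susp, and Adh libraries are each used in a pair of comparisons, so that the 3 sets of differences are not independent.

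**Figure D3:**
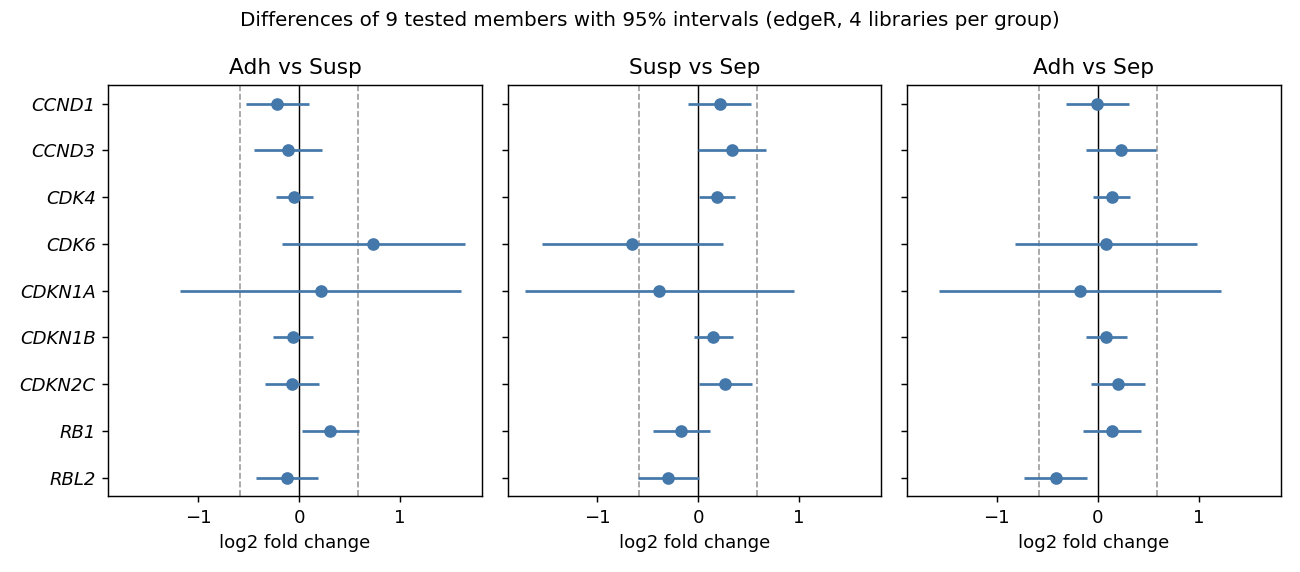
Log2 fold change (points) and 95% interval (lines) of the 9 tested members in 3 comparisons, from edgeR with 4 libraries per group, with dashed lines at a 1.5-fold change in either direction. Only RB1 in Adh vs Susp, CCND3, CDK4, and CDKN2C in Susp vs Sep, and RBL2 in Adh vs Sep have intervals that leave out 0, and none passed adjustment.

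The 9 measured members did not all move the same way from library to library. Over the 12 libraries, log2 CPM of *CCND1* had a Pearson r of 0.85 with *CCND3*, 0.84 with *CDKN2C*, 0.77 with *CDK4*, and 0.63 with *CDKN1B*, but of -0.74 with *RB1*, -0.77 with *CDK6*, and -0.46 with *RBL2*. These values describe 12 libraries that fall into shared groups and differ in the level of GC-rich genes, and they carry no test. GC content of the longest transcript was 56.2% in *CCND3*, 58.1% in *CDKN2C*, 52.0% in *CDK4*, and 42.7% in *CDKN1B*. For the members with a negative r it was 37.1% in *RB1*, 39.7% in *CDK6*, and 43.1% in *RBL2*. The part of base composition in these values was not tested. Of 8489 genes with a mean of at least 10 CPM, the 5 most like *CCND1* included *FPGS* (r = 0.98), *THAP7* (0.98), *FAAP20* (0.98), and *NOC4L* (0.98). The GC content of the longest transcripts of these 4 was 61.0% to 64.2%, above that of 89.8% or more of the tested genes, while the longest *CCND1* transcript, at 50.3%, was above 59.2% of them.

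The level of GC-rich genes as a whole moved with *CCND1* inside the groups, with a Pearson r of 0.97 between their deviations over the 12 libraries. In Sep replicate 1, *CCND1* lay 0.33 below its group mean on the log2 scale, and the median of the 3194 genes in the top 25% by GC lay 0.30 below. In Susp replicate 2, the corresponding deviations were 0.37 and 0.21 above the mean. Subtracting a trend in length and GC narrowed the pooled SD of log2 CPM within groups from 0.22 to 0.13 for *RB1*, from 0.20 to 0.10 for *CDKN2C*, and from 0.25 to 0.16 for *CCND3*. For *CCND1* it was 0.26 before and 0.25 after, and for *CDKN1B* it widened from 0.11 to 0.16. The part of base composition in the spread of *CCND1* was not tested further.

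**Figure D4:**
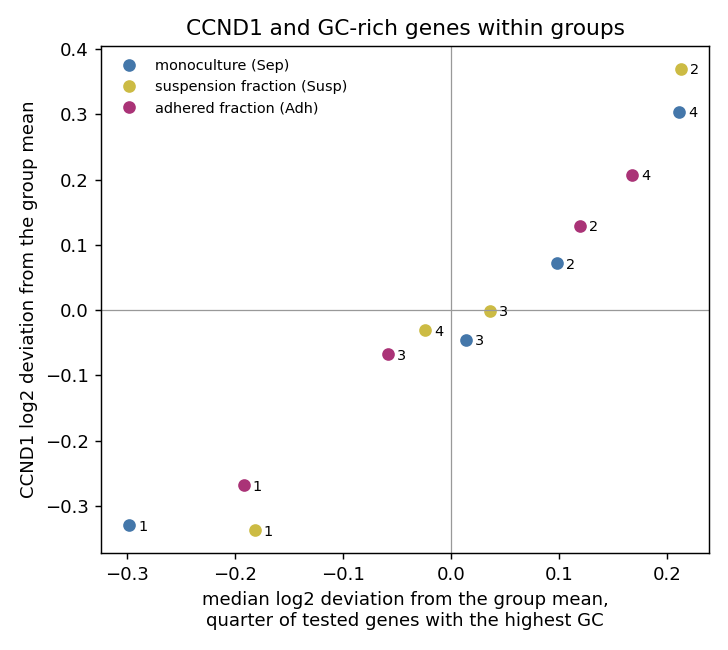
CCND1 deviation from its group mean (log2 CPM, y axis) against the median deviation of the 25% of tested genes with the highest GC content (x axis), 1 point per library, labelled by replicate number. Replicate 1 lies lowest on both axes in each group, and Susp replicate 2 highest on both, at 0.37 and 0.21.

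Other genes of the G1 to S step were tested as a list of 29, with cyclin E, CDK2, further inhibitors, E2F factors, and regulators of cyclin and p27 turnover. Of 27 that passed the filter, edgeR called 1 in Susp vs Sep, beside 0.731% of all genes. This was *CDKN2D*, which encodes p19, another inhibitor of CDK4 and CDK6. In Susp vs Sep 3 of the 27 were higher and 2 lower at an unadjusted p under 0.05, beside 16.7% of all genes. In Adh vs Susp and Adh vs Sep edgeR called 0, with 7 and 5 of the 27 at an unadjusted p under 0.05, beside 18% and 20.2% of all genes, and DESeq2 called 1 in each. *CDKN2D* was at 19.96, 22.6, 19.7, and 20.3 CPM in Sep, at 30.2, 40.4, 27.8, and 26.5 CPM in Susp, and at 18.8, 20.8, 22.6, and 24.3 CPM in Adh. All Susp libraries were above all others. It rose by 0.60 in Susp vs Sep (SE 0.14, edgeR adjusted p = 0.045), and the Adh vs Susp difference was -0.54 (SE 0.14, adjusted p = 0.0702). The call rests on a fold just over 1.5, and without Susp replicate 2 the difference was 0.44 (adjusted p = 0.0721). It shrank more with the length and GC trend, to 0.26 (SE 0.11, edgeR adjusted p = 0.238). With trend and replicate block it was 0.26 as well (edgeR adjusted p = 0.145).

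The remaining INK4 and CIP/KIP inhibitors, chosen after their values were seen, were scarce. *CDKN2B* (p15) had 0 counts in all libraries, and *CDKN2A*, which encodes p16 and ARF, had 0 to 2. *CDKN1C* (p57) had 6 to 20 counts in Sep, 16 to 36 in Susp, and 2 to 6 in Adh. Its log2 difference was -1.99 in Adh vs Susp (SE 0.51, adjusted p = 0.0691) and -1.80 in Adh vs Sep (SE 0.52, adjusted p = 0.0684), and DESeq2 called it in both (adjusted p = 0.0217 and 0.0312).

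Among 21 S phase genes, which are known targets of E2F, 0 were called by edgeR or DESeq2 in any comparison. In Adh vs Susp, 5 of 21 had an unadjusted p under 0.05, beside 18% of all genes, all 5 higher in Adh, and the list's median log2 difference was 0.088, beside -0.0051 over all genes. There were 1 such gene in Susp vs Sep (16.7% of all genes) and 3 in Adh vs Sep (20.2% of all genes). The numbers without Susp replicate 2 were 8, 1, and 6 in Adh vs Susp, Susp vs Sep, and Adh vs Sep, beside 18.0%, 11.2%, and 26.8% of all genes. *PCNA*, the sliding clamp of DNA polymerase, was at 0.22 in Adh vs Susp (SE 0.08, adjusted p = 0.178) and at 0.31 without that library (adjusted p = 0.0164), a fold below 1.5. In Adh vs Sep the smallest p values were those of *PCNA* (0.26, SE 0.08, adjusted p = 0.0833) and the flap endonuclease *FEN1* (0.24, SE 0.083, adjusted p = 0.116), which reached adjusted p values of 0.00599 and 0.0129 without Susp replicate 2, at folds below 1.5. In Susp vs Sep the thymidylate synthase *TYMS* was at 0.18 (adjusted p = 0.312).

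Of 25 genes of G2 and mitosis, 0 were called by edgeR, and 8 had an unadjusted p under 0.05 in Adh vs Susp, beside 18% of all genes, all 8 lower in Adh. In Susp vs Sep 7 were higher and 2 lower at that threshold (16.7% of all genes), and in Adh vs Sep 2 were higher and 4 lower (20.2%). With Susp replicate 2 left out, 10 were lower in Adh vs Susp, 4 higher and 2 lower in Susp vs Sep, and 2 higher and 6 lower in Adh vs Sep. Shares of all genes without that library were 18.0%, 11.2%, and 26.8% in the same order. The median of the list was -0.13 in Adh vs Susp, 0.065 in Susp vs Sep, and -0.099 in Adh vs Sep. *UBE2C*, a ubiquitin-conjugating enzyme of mitotic exit, was at -0.45 in Adh vs Susp (SE 0.12, adjusted p = 0.0804) and the mitotic kinase *PLK1* at -0.36 (SE 0.11, adjusted p = 0.113). Both were at -0.30 without Susp replicate 2. In that edgeR fit *CENPE* was at -0.57 in Adh vs Susp (adjusted p = 0.000561) and -0.50 in Adh vs Sep (adjusted p = 0.000304). *TOP2A* was lower in Adh vs Sep (-0.34, adjusted p = 0.00423) and *PTTG1* higher (0.26, adjusted p = 0.0467), all at folds below 1.5. With all libraries, the smallest p values in Adh vs Sep were those of *CENPF* (-0.54, SE 0.16, adjusted p = 0.0727) and *MKI67* (-0.59, SE 0.19, adjusted p = 0.091), both very long transcripts. *MKI67*, the Ki-67 proliferation antigen, was at 1037 to 1372 CPM in Sep, 457 to 1056 in Susp, and 660 to 902 in Adh. Without Susp replicate 2, the library at 457 CPM, its Adh vs Sep difference was -0.59 with an adjusted p of 0.000599, that of *CENPF* was -0.53 with an adjusted p of 0.00165, and DESeq2 called *MKI67* with all libraries (adjusted p = 0.0424). In Susp vs Sep, *MYBL2* (0.28) and *UBE2C* (0.33) had adjusted p values of 0.166 and 0.196, and *UBE2C* was at 0.19 without Susp replicate 2.

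Other p53 targets gave no call by edgeR or DESeq2 among the 19 of 20 tested, with medians of -0.019 (Adh vs Susp), 0.13 (Susp vs Sep), and 0.084 (Adh vs Sep). *ZMAT3*, an RNA-binding p53 target, was at 0.42 in Adh vs Sep (SE 0.11, adjusted p = 0.0554) and at 0.29 in Adh vs Susp. *TRIAP1* was at 0.38 and 0.32 relative to Sep in Adh and Susp, *GADD45A* at 0.42 in Susp vs Sep, and *MDM2* at 0.28 in Adh vs Susp, with adjusted p values of 0.142 to 0.27. At an unadjusted p under 0.05 there were 2, 2, and 3 genes of the list, all of them higher in the first-named group, beside 18%, 16.7%, and 20.2% of all genes. When Susp replicate 2 was left out, *ZMAT3* and *TRIAP1* in Adh vs Sep had adjusted p values of 0.00848 and 0.034 at folds below 1.5, *TRIAP1* in Susp vs Sep was at 0.16, and *MDM2* in Adh vs Susp at 0.17.

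Of 6 genes linked to p130 and the DREAM complex, not all of them subunits, 0 were called by either tool. *LIN37* was at -1.18 in Adh vs Susp (SE 0.39, adjusted p = 0.14) and -0.85 in Adh vs Sep (SE 0.40, adjusted p = 0.246). It was scarce, with 9 to 27 counts per library in Sep, 29 to 38 in Susp, and 5 to 13 in Adh. *LIN9* was at 0.34 in Adh vs Susp and -0.25 in Susp vs Sep, *LIN52* at 0.25 in Adh vs Sep, and the histone chaperone *RBBP4* at -0.080 in Susp vs Sep. Their adjusted p values lay between 0.153 and 0.6. Numbers of genes of this list with an unadjusted p under 0.05 were 3, 1, and 1 in Adh vs Susp, Susp vs Sep, and Adh vs Sep, beside the same shares of all genes.

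**Figure D5:**
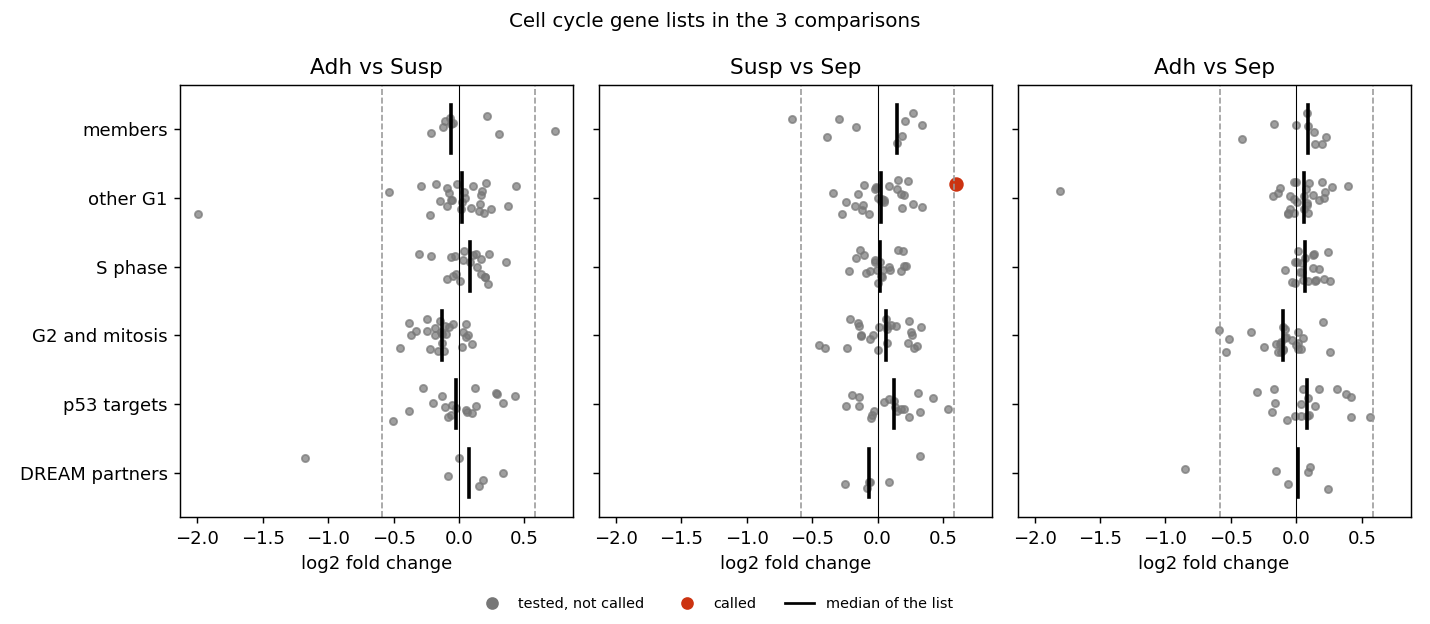
Log2 fold change of each tested gene (points) in the members and 5 other cell cycle lists, with the list median (black bars) and dashed lines at a 1.5-fold change. CDKN2D in Susp vs Sep, at 0.60, is the only called gene (red), and CDKN1C lies farthest out, at -1.99 in Adh vs Susp and -1.80 in Adh vs Sep.

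Genes next to *CCND1* on chromosome 11 did not share its level. *FGF3*, *FGF4*, *FGF19*, and *ANO1* had 0 counts in all 12 libraries, and *MYEOV* was at 0.402 to 3.17 CPM. *ORAOV1*, which overlaps the end of *CCND1* on the opposite strand by 497 bases, was at 29.3 to 41.7 CPM. *TPCN2*, which encodes a two-pore channel of endolysosomes, was at 21.2 to 31.6 CPM in Sep, 22.2 to 26.0 in Susp, and 16.3 to 20.7 in Adh, with Adh below both other groups in every library. Its log2 difference in Adh vs Sep was -0.57 (SE 0.13, edgeR adjusted p = 0.0272), at a fold below 1.5. For *ORAOV1* the difference was -0.14 (adjusted p = 0.548), and for *MYEOV* it was 0.67 in Adh vs Susp (adjusted p = 0.428) and -0.74 in Susp vs Sep (adjusted p = 0.378).

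The B-cell genes gave no call at a 1.5-fold change either, but *CD22* was at 0.43 in Susp vs Sep (adjusted p = 0.0236) and 0.39 in Adh vs Sep (adjusted p = 0.025), and *CD79B* at 0.55 in Susp vs Sep (adjusted p = 0.031). The value of *CD79B* without Susp replicate 2 was 0.39 (adjusted p = 0.0133). *SOX11* was at -0.38 in Adh vs Susp and -0.34 in Adh vs Sep, with adjusted p values of 0.141 and 0.134. Of the human stromal genes only *COL6A1* and *POSTN* passed the filter on low counts, and their differences, between -0.39 and 0.20, were within their SEs.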

How the data were processed

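REC-1 and MS-5 poly(A) RNA libraries (TruSeq v2.0, paired-end, not stranded) were processed by the authors. Xenome sorted reads by species, STAR 2.5.1b mapped them to GRCh38 or GRCm38, and featureCounts (Subread 1.5.2) gave the number of uniquely mapped reads per Ensembl gene. The deposited values are raw counts. The 20 columns of another cell line were not analysed here.

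Counts of the 12 REC-1 libraries were fitted in 1 model with edgeR 4.0.16 in R 4.3.3 (filterByExpr, TMM, glmQLFit, glmQLFTest, group means only). P-values were adjusted by Benjamini-Hochberg over all 12861 genes tested, and calls needed an adjusted p of 0.05 or less together with a 1.5-fold or larger change. SE is the log2 fold change divided by the square root of F. CPM are counts per 1000000 of the library's effective size, which is its human count total times its TMM factor. RPKM use these CPM and GENCODE v44 exon lengths, which differ from the release used for counting. Transcript GC and length came from the same release. Members and lists were chosen with earlier results of these data known. Beside the members, the genes named from a list are those called in any comparison or, if none was, the pair with the smallest p in each, and the 5 genes most like *CCND1*. *CENPE*, *TOP2A*, and *PTTG1* are named for an adjusted p of at most 0.05 without Susp replicate 2. Alternatives were DESeq2 1.42.0, other scalings and filters, a replicate block, thinned or halved counts, a loess trend in length and GC (span 0.3), and leaving out each library. The last few (halved counts, the length and GC trend, and the block combined with that trend or without Susp replicate 2) were chosen after seeing the data. Depth was 7758979 to 21467832 human counts per REC-1 library, and a count of 0 was read as up to 3 counts. Some genes of the lists and of the rule for named genes are not reported here.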

Additional observations from a re-analysis of the deposited data

Results flagged for a closer look

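*RB1* in Susp replicate 2, at 75.5 CPM, lay far from the other 3 Susp libraries, which were between 114.7 and 120.0 CPM. Its gap to the nearest of them was 0.881 of the group's range, above the 95% critical value for 4 samples in Dixon's test. It was the only such value among 27 groups of 4 libraries, and chance flags about 1 group in 20. The same library had the low level of long transcripts described in the report, and with a trend in length and GC subtracted the *RB1* difference in Adh vs Susp was 0.18, beside 0.31 without that step.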

How the results depend on the processing

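No member was called under any alternative. An adjusted p of at most 0.05 at a smaller fold was reached by *RBL2* in Adh vs Sep under 4 alternatives (without Susp replicate 2, 2 groups alone, length and GC trend, and block without Susp replicate 2), and by *RB1* in Adh vs Susp and *CDKN2C* in Adh vs Sep under the last of these alone (adjusted p = 0.0387 and 0.0105). Of 693 member values under alternatives, 655 kept their sign. The 38 that did not were all uncalled, and the cause was not tested. In Adh vs Susp, *CCND3*, *CDK4*, and *CDKN2C* became 0.045, 0.018, and 0.13 with the length and GC trend, and 0.044, 0.019, and 0.13 with trend and replicate block. With the replicate block and without Susp replicate 2, *CCND3*, *CDK4*, *CDKN1B*, and *CDKN2C* became 0.017, 0.027, 0.034, and 0.063. Over the 12 fits that leave out 1 library each, the differences that took both signs in Adh vs Susp were *CCND3* (-0.20 to 0.015), *CDK4* (-0.084 to 0.033), *CDKN1A* (-0.22 to 0.80), *CDKN1B* (-0.12 to 0.011), and *CDKN2C* (-0.16 to 0.045). In Susp vs Sep the only one was *CDKN1A* (-0.96 to 0.025), and in Adh vs Sep they were *CCND1* (-0.098 to 0.10), *CDK6* (-0.11 to 0.29), and *CDKN1A* (-0.61 to 0.10). Other changes of sign in Adh vs Sep were *CCND1* at 0.0013 with the replicate block, 0.0016 without mitochondrial genes, 0.0084 with thinned and 0.0021 with halved counts, 0.0041 with the trend, 0.0092 with trend and block, and 0.0074 with the block and without Susp replicate 2, and *CDK6* at -0.00053 with thinned counts.

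The count of called genes in the other G1 list moved between 0 and 1. In Adh vs Susp it was 1 (*CDKN1C*) with the replicate block, DESeq2, and no low-count filter, and 0 to 1 over the leave-one-out fits. In Susp vs Sep it was 0 with upper-quartile scaling, library totals only, at least 10 counts in every library, the 2 groups alone, the trend, the trend with the block, and the block without Susp replicate 2, and 0 to 1 over the leave-one-out fits. *CDKN2D* was called under 9 of 26 alternatives (adjusted p 0.00364 to 0.238). In Adh vs Sep the count was 1 (*CDKN1C*) with DESeq2, the trend, and the block without Susp replicate 2, and 0 to 1 over the leave-one-out fits. For the G2 and mitosis list in Adh vs Sep it was 1 (*MKI67*) with DESeq2, no low-count filter, the 2 groups alone, and the block without Susp replicate 2, and 0 to 1 over the leave-one-out fits. *MKI67* was called under 5 of 26 alternatives (adjusted p 7.2e-09 to 0.253).

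Whether replicate numbers pair the libraries was checked by the correlation of their deviations from group means. It was over 0.1 for 1, 1, and 3 of 4 numbers in Adh vs Susp, Susp vs Sep, and Adh vs Sep, and 3, 3, and 6 of 8 libraries correlated best with their own number. For number 1 it was 0.31, 0.32, and 0.31. This check cannot exclude that the numbers mark pairs, since Susp and Adh are fractions of cocultures and Susp replicate 2 stood apart. The main fit left the libraries unpaired. With the replicate block, edgeR called 281, 175, and 384 genes in these comparisons, against 100, 94, and 309 without it, but 0 members. The block without Susp replicate 2 called 419, 144, and 680 genes and 0 members. In that fit *RBL2* in Adh vs Sep was at -0.41 (edgeR adjusted p = 0.00753), a fold below 1.5. Taken by number, *CDKN2C* was higher than in Sep in 4 of 4 Adh and 4 of 4 Susp libraries, with adjusted p values of 0.227 and 0.117 under the block, and 0.0105 for Adh vs Sep (log2 difference 0.20, a fold below 1.5) when Susp replicate 2 was also left out. DESeq2 called 282, 173, and 527 genes. Depth limits *CDK6* and *CDKN1A* most, at 2 to 52 counts per library.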
